A study of Sus scrofa with 24 samples.

Results

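Chemokines, interleukins, tumour necrosis factor (TNF), the colony-stimulating factors and the receptors for these ligands were described in pig subcutaneous fat. A gene was a member if its symbol began with CCL, CCR, CXCL, CXCR or IL followed by a number, or was TNF, TNFRSF1A, TNFRSF1B, CSF1, CSF2 or CSF3. These symbols took in 110 of the 43603 probes on the array and 76 of the 10064 genes that had a symbol, and no probe was named CSF1. Each gene was read from its brightest probe, and 28 of the 76 genes had further probes. The members were 13 CC chemokines, 7 CXC chemokines, 6 CC and 3 CXC chemokine receptors, 25 interleukins, 17 interleukin receptors or binding proteins, 3 genes of the TNF family and 2 colony-stimulating factors.

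The tissue came from 24 pigs of 115 kg in 3 groups of 8, with 1 single-colour array per pig. Residual feed intake is the gap between what a pig eats and the amount foreseen from its growth and body upkeep, so a low value marks a feed-efficient animal. RFIneg pigs were of a line with low residual feed intake and ate freely, RFIpl pigs were of a line with high residual feed intake and ate freely, and RFIplR pigs were of the high line and were held to the feeding level of the RFIneg pigs. RFIneg against RFIpl therefore compares the lines under free feeding, RFIneg against RFIplR compares them at 1 feeding level, and RFIplR against RFIpl compares 2 feeding levels within the high line.

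Chemokines are small secreted proteins that guide white blood cells along a gradient, and they act through receptors on the migrating cell that are coupled to G proteins. Interleukins and TNF are secreted signals between immune cells and their neighbours, read by receptors that often share a subunit, such as IL6ST for the IL6 family. In fat these genes are known from macrophages and lymphocytes, and from stromal cells and adipocytes.

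All levels below are log2 of the processed signal minus the 75th percentile of that array, so a level of 0 is as bright as that percentile. Probes differ in how well they bind, so levels are compared between groups for 1 probe and not between genes. The arrays fell into 17 bright arrays, whose 75th percentile of signal lay between 414 and 663, and 7 dim arrays, where it lay between 69.4 and 94.4. The dim arrays were 2 of RFIneg, 2 of RFIpl and 3 of RFIplR. Each comparison is therefore given from a fit over all 24 arrays and from a fit with brightness as a block, which compares the groups within each brightness class. The arrays were scanned on 3 days, with all 7 dim arrays on day 2. That day held 2 dim arrays of RFIneg, 2 bright and 2 dim of RFIpl, and 1 bright and 3 dim of RFIplR. Differences within scan day 2 therefore mix group with brightness. The p-values measure the spread between pigs, each on its own array. The tissue label was checked with 7 adipocyte genes (ADIPOQ, PLIN1, FABP4, LEP, LIPE, CIDEC and AQP7), and each was well above background on all 24 arrays. 3 RFIpl arrays carried transcripts of other tissues: relative to the bright arrays as a whole, the 2 measured keratinocyte genes averaged 6.07 higher on RFIpl 7 and 4.63 higher on RFIpl 8, and the 5 measured muscle genes averaged 6.59 higher on RFIpl 2. RFIpl 3 stood apart from the other bright RFIpl arrays, at 0.36 for adipocyte genes (others -0.90 to -0.24) and 0.23 for neutrophil genes (others -1.63 to -1.14), which lies within the ranges of the bright RFIneg arrays.

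Of the 76 genes, 43 exceeded background clearly, by the scanner software's own flag (below: well above background), on 6 or more of the 8 arrays in 1 or more groups and were kept for testing (56.6%), against 60.2% of all genes with a symbol. All 43 met this in RFIpl, 38 met it in RFIneg and 32 met it in RFIplR, the group with the most dim arrays. Asked of at least 75% of the bright arrays alone, the counts were 46, 41 and 49 in the same order, which puts RFIplR first and not last. The bright arrays numbered 6 in RFIpl, 6 in RFIneg and 5 in RFIplR, so this rule was not equally strict. The share of all probes well above background ran from 52.1% to 79.9% on bright and from 43.1% to 61.5% on dim arrays. The counts by group are therefore not read as a trait of the members. Among the 43, 19 were well above background on every array. The kept genes by family were 12 of 13 CC chemokines, 5 of 7 CXC chemokines, 4 of 6 CC receptors, 2 of 3 CXC receptors and all 3 genes of the TNF family, but 9 of 25 interleukins and 7 of 17 interleukin receptors. Since probes differ in how well they bind, these counts are not read as a difference in expression between families.

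**Figure D1:**
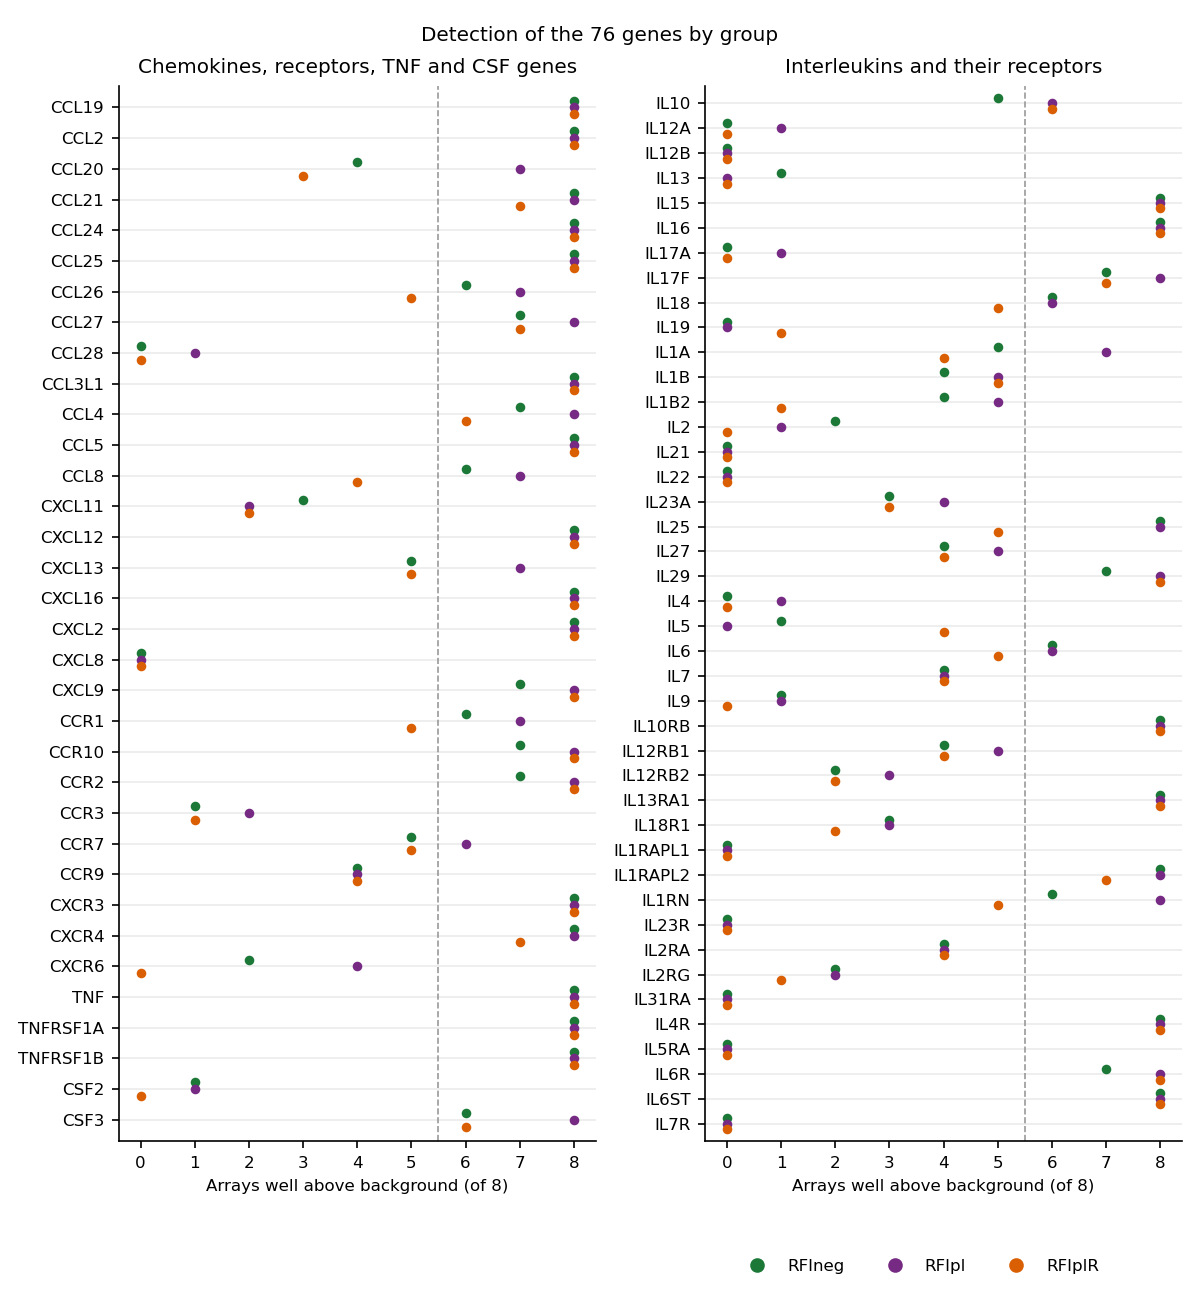
Number of arrays (of 8) on which the brightest probe of each of the 76 genes was well above background, by group, with the dashed line at the limit of 6 arrays. Most chemokines sit at the right and many interleukins sit at the left, where 9 genes have a count of 0 in all 3 groups.

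In the fit over all 24 arrays (limma, Benjamini-Hochberg adjusted p under 0.05 over 28601 probes), no member was called in any of the 3 comparisons. Over all probes, 0.206% were called in RFIneg against RFIpl, 0% in RFIneg against RFIplR and 0.297% in RFIplR against RFIpl. At an unadjusted p under 0.05 the members numbered 4 of 43 (9.3%, against 6.86% of all probes) in RFIneg against RFIpl, 2 of 43 (4.65%, against 2.12%) in RFIneg against RFIplR, and 6 of 43 (14%, against 8.19%) in RFIplR against RFIpl. With brightness as a block, CXCL9 was called higher in RFIneg than in RFIpl, where 6.63% of all probes were called. IL10RB was called higher and CCL20 lower in RFIplR than in RFIpl, where 10.4% of all probes were called. CCL20 was near background and passed the filter only through RFIpl, the group where it was higher. None was called between RFIneg and RFIplR, where 0% of all probes were called. At an unadjusted p under 0.05 with the block the members numbered 6 of 43 (14%, against 22.8% of all probes), 2 of 43 (4.65%, against 9.49%) and 12 of 43 (27.9%, against 25.7%). RFIpl 3 was picked out with the values known. It held the highest CXCL9 and the lowest TNFRSF1A level of RFIpl, so leaving it out had to widen their differences from RFIpl. The calls without RFIpl 3 are therefore not read as support. Without RFIpl 3 the block fit gave CXCL9 a difference of 1.57 (adjusted p = 0.00702), IL10RB 0.70 (adjusted p = 0.0134) and CCL20 -0.66 (adjusted p = 0.0310). For CXCL9 this was the lowest adjusted p among the 24 block fits that left out 1 array. The fit without RFIpl 3 also called IL15 and TNFRSF1A in both comparisons with RFIpl and CXCL9 in RFIplR against RFIpl, where 11.9% and 12.8% of all probes were called. The shares of members called with the block over all 24 arrays, 2.33%, 0% and 4.65% in the order of the comparisons above, were at or under these backgrounds. A test for any difference among the groups called no member over all 24 arrays, where 0.28% of probes were called, and called IL10RB (adjusted p = 0.0217) with brightness as a block, where 9.03% of probes were called. The median difference of the 43 members was -0.03, -0.10 and 0.06 in the 3 comparisons, beside -0.01, -0.01 and 0.01 for all kept probes.

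**Figure D2:**
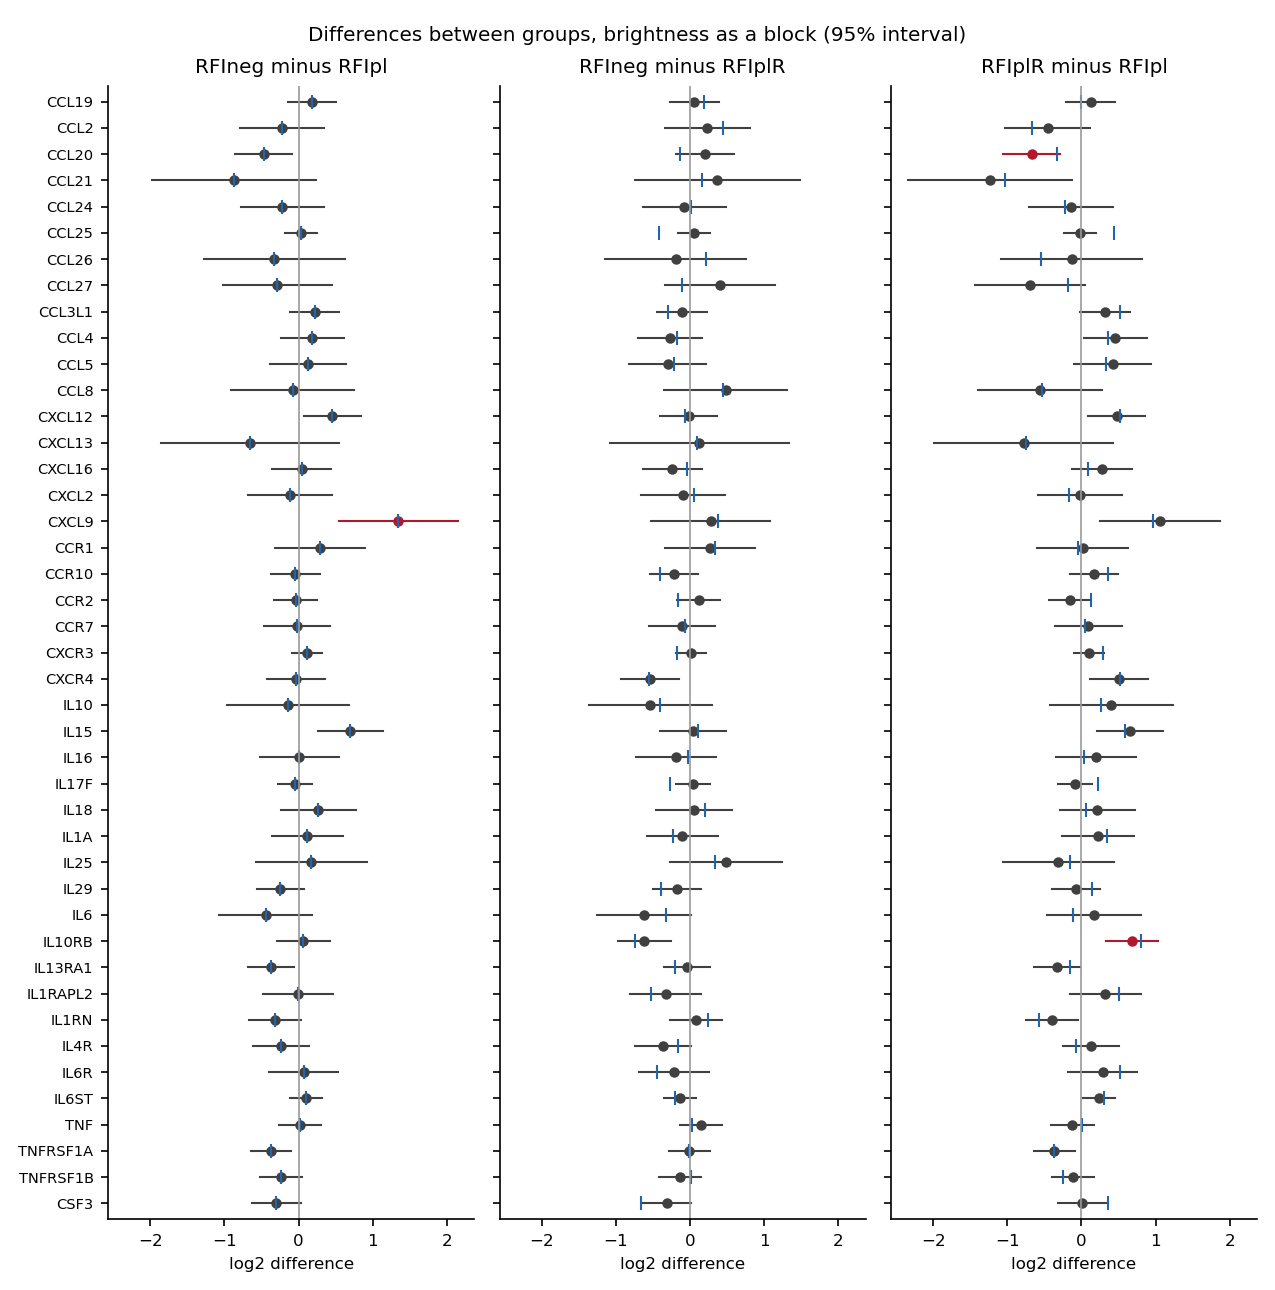
Log2 differences of the 43 kept genes in the 3 comparisons, with points and 95% intervals from the fit with brightness as a block (red where the adjusted p is under 0.05) and blue ticks for the difference over all 24 arrays. Red marks CXCL9 in the left panel and CCL20 and IL10RB in the right panel, and most other intervals cross 0.

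The design resolved the members unevenly. Over all 24 arrays the half-width of the 95% interval ran from 0.31 to 2.05 with a median of 0.83. With brightness as a block it ran from 0.20 to 1.20 in RFIneg against RFIpl, with a median of 0.42. A difference of 1 on the log2 scale, a 2-fold change, was reached by 1, 0 and 1 members over all arrays in the 3 comparisons and by 1, 0 and 2 with the block. These were CXCL9 in RFIneg against RFIpl in both fits, CCL21 in RFIplR against RFIpl in both fits, and CXCL9 in the latter comparison with the block.

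CXCL9, a chemokine induced by interferon gamma that attracts T cells through CXCR3, had the largest difference between RFIneg and RFIpl among the 43 members. It is shown by the first 30 bases of its 60-base probe, since this 1 probe carries the result.
CXCL9: tctcaacgtcctgatcaaaagaagatgaca
The lowest, median and highest CXCL9 levels were -2.96, -0.76 and 0.23 in RFIneg, -3.27, -2.61 and -0.54 in RFIpl, and -2.41, -1.42 and -0.36 in RFIplR. Most RFIneg arrays lay above most RFIpl arrays and the ranges overlapped, because 1 dim RFIneg array was low and 2 bright RFIpl arrays were high. RFIneg averaged 1.34 above RFIpl (SE 0.43, a 2.53-fold difference; adjusted p = 0.289). With brightness as a block the difference was also 1.34 (SE 0.39, 95% interval 0.54 to 2.14; adjusted p = 0.0394). Within the bright arrays alone it was 1.55 (SE 0.45; adjusted p = 0.0852), in the dim class 0.73, and within scan days 1 and 2 it was 0.93 and 0.75, none of them past the threshold. The call with the block was lost without any 1 of 11 of the 24 arrays, namely RFIneg 1 to 6 and RFIpl 1, 2, 4, 6 and 7 (adjusted p up to 0.0867). RFIplR averaged 0.97 above RFIpl (SE 0.43; adjusted p = 0.518), or 1.06 with the block (SE 0.39; adjusted p = 0.0824). RFIneg and RFIplR averaged -0.98 ± 0.94 and -1.35 ± 0.64 (SD, n = 8), and their ranges overlapped through most of their length.

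CXCL12, which holds leukocytes and stem cells in tissue niches through CXCR4, was lowest in RFIpl on average. Its lowest, median and highest levels were 3.82, 4.39 and 5.58 in RFIneg, 3.77, 3.98 and 4.76 in RFIpl, and 3.67, 4.69 and 5.04 in RFIplR. Apart from 1 dim RFIpl array and 1 bright RFIplR array, the RFIpl levels lay below the RFIplR levels. The difference to RFIpl was 0.45 in RFIneg (SE 0.22; adjusted p = 0.717) and 0.53 in RFIplR (SE 0.22; adjusted p = 0.459). With the block both were 0.45 (SE 0.19; adjusted p = 0.142) and 0.48 (SE 0.19; adjusted p = 0.107). Within scan days 1 and 2 they were 0.25 and 0.82 for RFIneg and 0.27 and 0.62 for RFIplR. The values of day 2 mix group with brightness, and CXCL12 averaged 4.25 on the bright and 4.68 on the dim arrays. A second probe of CXCL12 followed the first at r = 0.81 over the 17 bright arrays, and its difference between RFIplR and RFIpl with the block was 0.71 (adjusted p = 0.0359). Over all arrays this difference was 0.77 (adjusted p = 0.218). Between RFIneg and RFIpl the second probe gave 0.54 with the block (adjusted p = 0.129).

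The other tested CXC chemokines had no call in either fit. CXCL2, a neutrophil attractant, averaged 1.43 ± 0.77 in RFIneg, 1.55 ± 0.76 in RFIpl and 1.38 ± 0.88 in RFIplR (SD, n = 8, as for all levels below). CXCL16, a membrane-bound chemokine and the ligand of CXCR6, averaged 1.08 ± 1.01, 1.04 ± 0.74 and 1.13 ± 0.74 in the same order. CXCL13, which draws B cells into follicles, averaged -3.58 ± 0.93, -2.92 ± 1.74 and -3.67 ± 0.70. The wide spread of CXCL13 in RFIpl came from RFIpl 7, at 0.90, while the other 7 arrays lay between -5.03 and -2.60. CXCL11 was well above background on 3, 2 and 2 arrays of RFIneg, RFIpl and RFIplR and CXCL8, the main neutrophil attractant of pig and human, on none of the 24, so neither was tested.

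Among the CC chemokines, CCL20, which attracts CCR6-bearing lymphocytes and is made by epithelia, was the 1 member called lower in RFIplR than in RFIpl with the block. Its probe is shown by its first 30 bases, because the signal behind the call was close to background.
CCL20: atgtaaaaacagatgctccctgctatggaa
It was well above background on 4, 7 and 3 of the 8 arrays of RFIneg, RFIpl and RFIplR and was kept only through RFIpl, and its median processed signal was 12.7 on the bright and 11.1 on the dim arrays. The lowest, median and highest levels were -5.80, -5.45 and -2.91 in RFIneg, -5.51, -4.89 and -2.23 in RFIpl, and -6.45, -5.45 and -2.64 in RFIplR. The 7 dim arrays formed the upper cluster in every group, and within the bright arrays RFIpl ran from -5.51 to -4.38 and RFIplR from -6.45 to -5.44, with a narrow overlap. The difference was -0.33 over all arrays (SE 0.65; adjusted p = 0.999) and -0.67 with the block (SE 0.19, 95% interval -1.06 to -0.28; adjusted p = 0.0257). Among bright arrays it was -0.78 and among dim arrays -0.47, and by day it was -0.76 on scan day 1 and -0.09 on scan day 2, which held bright and dim arrays. The highest bright RFIpl level, -4.38, was on RFIpl 7, and RFIpl 8 stood at -4.81; both are the arrays with keratinocyte transcripts. The other bright RFIpl arrays ran from -5.51 to -4.97. RFIneg 6, a bright array with a keratinocyte level of -1.18, stood at -4.77. The part of keratinocyte transcripts in the CCL20 difference was not tested. Without RFIpl 7 and 8 the difference with the block was -0.52 (SE 0.19; adjusted p = 0.0987), and leaving out RFIpl 5, RFIplR 5 or RFIplR 8 alone also ended the call (adjusted p up to 0.0603). Under normexp background correction the sign turned, to 0.67 over all arrays and 0.44 with the block.

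CCL21, which with CCL19 guides CCR7-bearing dendritic cells and T cells into lymph nodes, had its highest levels in RFIpl. Its lowest, median and highest levels were -2.32, -1.69 and 0.31 in RFIneg, -1.77, -0.50 and 0.78 in RFIpl, and -5.89, -1.03 and 0.18 in RFIplR. The groups overlapped, and RFIplR 7 at -5.89 lay far below every other array. RFIneg differed from RFIpl by -0.87 (SE 0.65; adjusted p = 1), or with the block by the same amount (SE 0.53; adjusted p = 0.348). RFIplR differed from RFIpl by -1.03 (SE 0.65; adjusted p = 0.855), or -1.23 with the block (SE 0.54; adjusted p = 0.148), and without RFIplR 7 by -0.42 and -0.65 (adjusted p = 0.942 and 0.286). CCL19 averaged 1.32 ± 0.65, 1.14 ± 0.53 and 1.13 ± 0.63 in RFIneg, RFIpl and RFIplR, with its lowest and highest group means closer together than those of CCL21.

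CCL8, a monocyte attractant, had the smallest p among CC chemokines between RFIneg and RFIplR over all arrays. Its lowest, median and highest levels were -4.92, -3.08 and -2.17 in RFIneg, -4.78, -3.26 and -2.28 in RFIpl, and -4.64, -3.96 and -2.80 in RFIplR. The groups overlapped almost fully, with a difference of 0.45 between RFIneg and RFIplR (SE 0.41; adjusted p = 0.999) that turned to -0.35 under normexp correction. CCL2, the classical monocyte attractant read by CCR2, averaged 0.72 ± 0.85, 0.94 ± 1.04 and 0.27 ± 1.10 in RFIneg, RFIpl and RFIplR. CCL5, a T-cell and macrophage attractant read by CCR1 and CCR3, averaged 1.04 ± 0.62, 0.92 ± 0.70 and 1.25 ± 0.52. CCL3L1 and CCL4, inflammatory chemokines that are near-identical to other copies in mammalian genomes and whose probes may share transcripts, averaged -1.26 ± 0.83, -1.48 ± 0.84 and -0.96 ± 0.80, and -1.75 ± 0.43, -1.94 ± 0.47 and -1.58 ± 0.74.

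The remaining CC chemokines also differed between groups by less than their spread within groups. CCL24 and CCL26, eosinophil attractants that act on CCR3, averaged 0.43 ± 0.76, 0.65 ± 0.54 and 0.42 ± 0.61, and -1.44 ± 2.22, -1.11 ± 1.62 and -1.66 ± 1.69. CCL25, the thymic and intestinal ligand of CCR9, averaged 0.11 ± 1.70, 0.08 ± 1.67 and 0.52 ± 2.04. CCL27, the skin chemokine read by CCR10, averaged -3.44 ± 1.91, -3.15 ± 1.86 and -3.33 ± 2.44. Of the arrays with keratinocyte transcripts, it stood at -2.03 on RFIpl 7 and at -4.21 on RFIpl 8. CCL28, a mucosal chemokine, was well above background on 0, 1 and 0 arrays.

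**Figure D3:**
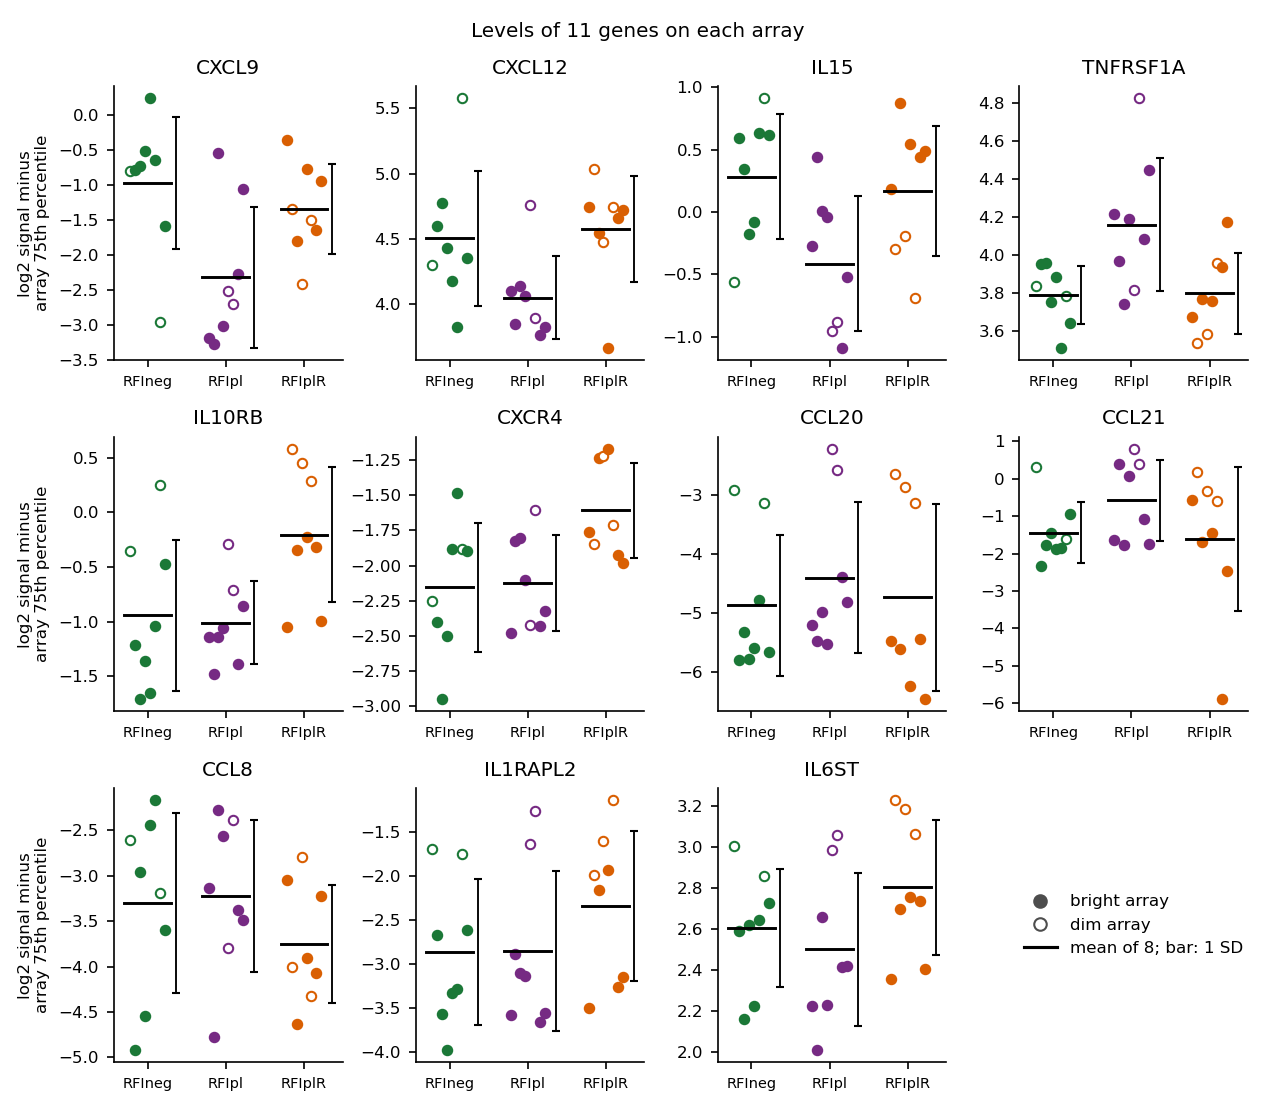
Level of 11 genes on each array by group (log2 signal minus the 75th percentile of the array), with filled points for bright arrays, open points for dim arrays, black lines for group means and bars for 1 SD. CXCL9 is low on most RFIpl arrays, IL10RB is high on most RFIplR arrays, and the dim arrays lie above the bright arrays of their group in CCL20 and IL6ST.

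Among the chemokine receptors, CXCR4, the receptor of CXCL12 on most leukocytes, was highest in RFIplR on average. Its lowest, median and highest levels were -2.95, -2.07 and -1.48 in RFIneg, -2.48, -2.21 and -1.61 in RFIpl, and -1.98, -1.73 and -1.17 in RFIplR. No RFIplR array fell under -1.98, while arrays of both other groups did, and the ranges overlapped. RFIplR was 0.52 above RFIpl (SE 0.20; adjusted p = 0.398) and RFIneg differed from RFIplR by -0.55 (SE 0.20; adjusted p = 0.999). With the block the differences were 0.51 (SE 0.19; adjusted p = 0.0908) and -0.54 (SE 0.19; adjusted p = 0.414). A second probe of CXCR4, at r = 0.97 with the first over the bright arrays, gave 0.75 in RFIplR against RFIpl with the block (adjusted p = 0.0359), and the third gave 0.75 (adjusted p = 0.0646). Over all arrays the second gave 0.47 (adjusted p = 0.999) and the third 0.88 (adjusted p = 0.412). The second was well above background on 6, 6 and 5 arrays of RFIneg, RFIpl and RFIplR. CXCR3, the receptor of CXCL9 on activated T cells, averaged -0.35 ± 0.64, -0.47 ± 0.73 and -0.18 ± 0.80.

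The tested CC receptors had no call in either fit. CCR1, found on monocytes and neutrophils, averaged -2.66 ± 0.67, -2.95 ± 0.56 and -2.99 ± 0.71 in RFIneg, RFIpl and RFIplR. CCR2, the monocyte receptor of CCL2, averaged -2.37 ± 1.09, -2.32 ± 0.93 and -2.20 ± 1.30. CCR7, the lymph node homing receptor, averaged -4.15 ± 0.56, -4.13 ± 0.42 and -4.08 ± 0.43. CCR10, a receptor of skin-homing T cells, averaged -2.59 ± 0.84, -2.54 ± 0.75 and -2.18 ± 0.76. CCR3, CCR9 and CXCR6 were well above background on 1, 2 and 1, on 4, 4 and 4, and on 2, 4 and 0 arrays of the 3 groups and were not tested.

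IL15, which keeps natural killer and memory T cells alive and is also made by fat and muscle, was lower in RFIpl than in both other groups on average. Its lowest, median and highest levels were -0.56, 0.47 and 0.91 in RFIneg, -1.09, -0.39 and 0.44 in RFIpl, and -0.69, 0.31 and 0.88 in RFIplR. The 5 bright RFIplR arrays all stood at 0.19 or higher and the 6 bright RFIpl arrays at 0.44 or lower, so the overlap was small among bright arrays and wider among all. RFIneg was 0.70 above RFIpl (SE 0.26, a 1.62-fold difference; adjusted p = 0.470), and with the block 0.70 (SE 0.21; adjusted p = 0.0511). RFIplR was 0.58 above RFIpl (adjusted p = 0.544), and with the block 0.66 (adjusted p = 0.0521). RFIneg stood 0.57 above RFIpl within the bright and 1.09 within the dim arrays, and 0.58 and 0.92 within scan days 1 and 2. The second probe of IL15 correlated at r = 0.99 with the first over the 17 bright arrays and passed the threshold with the block in both comparisons, at 0.76 (adjusted p = 0.0438) and 0.80 (adjusted p = 0.0272). The third probe gave 0.97 (adjusted p = 0.0634) and 0.63 (adjusted p = 0.211). Leaving out RFIpl 2, the array with muscle transcripts, gave the first probe a difference of 0.80 between RFIneg and RFIpl with the block (adjusted p = 0.0312), and leaving out RFIneg 1, 4 or 5, RFIpl 3 or RFIplR 6 also brought its adjusted p under 0.05. Without RFIpl 7 and 8 the difference with the block was 0.51 (adjusted p = 0.180).

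The other 8 tested interleukins had no adjusted p under 0.05 in either fit. IL6, the acute-phase cytokine that fat releases into the blood, averaged -3.10 ± 1.17, -2.66 ± 1.34 and -2.77 ± 1.33 in RFIneg, RFIpl and RFIplR. IL10, the main anti-inflammatory interleukin, averaged -3.67 ± 0.79, -3.53 ± 1.10 and -3.26 ± 1.01. IL18 and IL1A, inflammatory members of the IL1 family, averaged -2.23 ± 0.55, -2.50 ± 0.72 and -2.43 ± 0.97, and -3.97 ± 0.61, -4.08 ± 0.62 and -3.74 ± 0.76. IL16, a ligand of CD4, averaged 0.10 ± 0.96, 0.09 ± 0.80 and 0.12 ± 0.69, the narrowest range of means in this family. IL17F and IL25, both of the IL17 family, averaged -2.90 ± 1.18, -2.86 ± 1.11 and -2.63 ± 1.31, and -2.96 ± 0.98, -3.13 ± 1.11 and -3.29 ± 0.73. The probe named IL29, an interferon of the lambda type, averaged -2.41 ± 0.90, -2.16 ± 0.80 and -2.02 ± 0.95.

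Most T-helper cytokines lay near background. IL12B, IL21 and IL22 were well above background on none of the 24 arrays. IL12A, IL17A and IL4 reached it on 1 RFIpl array, IL13 on 1 RFIneg array and IL19 on 1 RFIplR array. IL2 and IL9, T-cell growth factors, reached it on 2, 1 and 0 and on 1, 1 and 0 arrays of RFIneg, RFIpl and RFIplR, and IL5, which supports eosinophils, on 1, 0 and 4. IL7, IL23A and IL27 stood higher, at 4, 4 and 4, at 3, 4 and 3 and at 4, 5 and 4 arrays, and so missed the limit of 6. IL1B and its near-identical copy IL1B2 were detected on 4, 5 and 5 and on 4, 5 and 1 arrays; 1 further probe matched both and was left out, so the 2 copies cannot be fully told apart here.

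IL10RB, the subunit shared by the receptors of IL10, IL22 and the lambda interferons, was the member called in RFIplR against RFIpl that also passed the test for any group difference. Both of its probes are shown by their first 30 bases, since they read different stretches of the transcript and can be set against each other.
IL10RB probe 1: gtttgcagcctcgtgtgctcactaaaatga
IL10RB probe 2: aagtttttgacaagctgagtgtcatcacag
The lowest, median and highest IL10RB levels were -1.71, -1.13 and 0.25 in RFIneg, -1.48, -1.10 and -0.29 in RFIpl, and -1.05, -0.28 and 0.57 in RFIplR. The 3 dim RFIplR arrays, at 0.28 to 0.57, lay above both dim RFIpl arrays, at -0.71 and -0.29, while the bright arrays of the 2 groups overlapped through 2 low RFIplR arrays. RFIplR was 0.80 above RFIpl (SE 0.29, a 1.75-fold difference; adjusted p = 0.316). With brightness as a block it was 0.68 above (SE 0.17, 95% interval 0.33 to 1.04; adjusted p = 0.0149), and the call held without any 1 array (adjusted p up to 0.0422). Within the bright arrays it was 0.59 (SE 0.22; adjusted p = 0.131) and within the dim arrays 0.94 (SE 0.24; adjusted p = 0.184), so neither class alone passed the threshold. Within scan days 1 and 2 the difference was 0.75 and 0.94. The value of day 2 mixes group with brightness, and probe 1 averaged -1.03 on the bright and 0.03 on the dim arrays. RFIneg differed from RFIplR by -0.74 (SE 0.29; adjusted p = 0.999) and with the block by -0.62 (SE 0.17; adjusted p = 0.342). Probe 2 followed probe 1 at r = 0.79 over the bright arrays. It gave 0.51 between RFIplR and RFIpl over all arrays (adjusted p = 0.999) and 0.79 with the block (adjusted p = 0.145). Between the array classes the 2 probes moved in opposite directions, as probe 2 averaged -0.69 on the bright and -2.79 on the dim arrays. Probe 2 was well above background on 6, 6 and 7 arrays of RFIneg, RFIpl and RFIplR.

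IL6ST, the signalling subunit of the IL6 family, and IL1RAPL2, an IL1 receptor relative, were among the 5 members with the smallest p between RFIneg and RFIplR over all arrays. IL6ST ran from 2.16 over a median of 2.63 to 3.0 in RFIneg, from 2.01 over 2.42 to 3.06 in RFIpl, and from 2.36 over 2.75 to 3.23 in RFIplR. Its difference between RFIneg and RFIplR was -0.20 (SE 0.18; adjusted p = 0.999), and it was 0.08 under normexp correction. IL1RAPL2 ran from -3.98 over -2.98 to -1.69, from -3.66 over -3.12 to -1.26, and from -3.50 over -2.08 to -1.14, with a difference of -0.52 (SE 0.42; adjusted p = 0.999). In IL6ST the dim arrays formed the upper end of every group. In IL1RAPL2 they did so in RFIneg and RFIpl, while in RFIplR 1 bright array at -1.94 lay above 1 dim array at -2.0. The groups overlapped almost fully in both genes.

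The other tested interleukin receptors and binding proteins were IL6R, the IL6-binding subunit, IL4R and IL13RA1, which pair to read IL4 and IL13, and IL1RN, the natural blocker of the IL1 receptor. IL6R averaged -2.27 ± 1.04, -2.33 ± 1.02 and -1.82 ± 0.91 in RFIneg, RFIpl and RFIplR. IL4R averaged 1.44 ± 0.78, 1.67 ± 0.94 and 1.60 ± 0.78, and IL13RA1 -2.21 ± 0.71, -1.84 ± 0.70 and -2.0 ± 0.71. IL1RN averaged -2.52 ± 0.70, -2.20 ± 0.56 and -2.77 ± 0.90, and with the block IL13RA1 and IL1RN had differences of -0.33 and -0.40 between RFIplR and RFIpl (adjusted p = 0.174 and 0.140). The other 10 interleukin receptors were not tested. IL7R, IL23R, IL5RA, IL31RA and IL1RAPL1 were well above background on no array, IL2RG on 2, 2 and 1, IL12RB2 on 2, 3 and 2, IL18R1 on 3, 3 and 2, IL2RA on 4, 4 and 4, and IL12RB1 on 4, 5 and 4.

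TNFRSF1A, the widely expressed TNF receptor that can trigger inflammation or cell death, had its highest levels in RFIpl. Its 3 probes did not all show this, so the last 30 bases of each are given, with a run of GT repeats in capitals.
TNFRSF1A probe 1: agcctgtttcaccatagataagaagtcttt
TNFRSF1A probe 2: gcaggttGTGTGTGTGTGTGTGTGTGTGTg
TNFRSF1A probe 3: aaactcgtaacgactttcaggacacaggca
Probe 1 ran from 3.51 over a median of 3.81 to 3.96 in RFIneg, from 3.74 over 4.14 to 4.83 in RFIpl, and from 3.54 over 3.76 to 4.17 in RFIplR. Most RFIpl arrays lay above every RFIneg array, and 2 did not. RFIneg differed from RFIpl by -0.37 (SE 0.15; adjusted p = 0.545) and RFIplR by -0.36 (SE 0.15; adjusted p = 0.450), and with the block the adjusted p were 0.0890 and 0.0797. Probe 3 followed probe 1 at r = 0.78 over the bright arrays and was called lower than in RFIpl with the block, by -0.41 in RFIneg (adjusted p = 0.0267) and by -0.45 in RFIplR (adjusted p = 0.0128). Over all arrays its differences were -0.41 and -0.35 (adjusted p = 0.829 and 0.838). Probe 2 went with probe 1 at r = -0.37 and differed from RFIpl by -0.01 in RFIneg and -0.03 in RFIplR with the block. Its GT run is 22 bases long, and 25 of the 43603 probes on the array hold GT repeats of 16 bases or more.

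TNF, the ligand, had nearly equal group means at its brightest probe. It averaged 0.36 ± 0.62, 0.33 ± 0.46 and 0.34 ± 0.55 in RFIneg, RFIpl and RFIplR, at most 0.02 apart in the fit over all arrays. The last 30 bases of its 2 probes are shown with ATTTA, the core of the AU-rich elements known from cytokine messages, in capitals.
TNF probe 1: aaaaacaaatATTTAtctgatcgagttgtc
TNF probe 2: acagatgggctgtacctcatctactcccag
Probe 2 was well above background on 4 arrays of each group and went with probe 1 at r = -0.20 over the bright arrays, so the TNF level rests on probe 1. TNFRSF1B, the TNF receptor of immune and endothelial cells, averaged 0.60 ± 0.55, 0.84 ± 0.64 and 0.59 ± 0.59, and its 2 kept probes were related at r = 0.13. CSF3, which drives neutrophil production, had 1 of its 2 probes kept, and the first 30 bases of both show how they differ.
CSF3 probe 1: tatctctATTTAatATTTAtgcctATTTAa
CSF3 probe 2: agctggatgtcaccgacttagccaccaaca
CSF3 probe 1 averaged -4.17 ± 1.42, -3.87 ± 1.21 and -3.52 ± 1.44, whereas probe 2 was well above background on 0, 0 and 1 arrays. Probe 2 of CSF3 went with its probe 1 at r = -0.32 over the bright arrays, so the CSF3 level rests on probe 1. ATTTA was found, on the strand given, in 7 of the 110 member probes (6.36%) and in 4068 of the 43603 probes on the array (9.33%), and CSF3 probe 1 is 1 of 12 with at least 3 matches. CSF2, the granulocyte and macrophage factor, was well above background on 1, 1 and 0 arrays.

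Across the 17 tested genes with further kept probes, 18 of 23 such probes correlated with the brightest at r of 0.8 or more over the 17 bright arrays, and 3 had an r under 0.5 (1 each of IL6, TNFRSF1A and TNFRSF1B). With every kept probe counted and brightness as a block, 3 members were called in RFIneg against RFIpl (CXCL9, IL15 and TNFRSF1A), none in RFIneg against RFIplR, and 6 in RFIplR against RFIpl (CCL20, CXCL12, CXCR4, IL10RB, IL15 and TNFRSF1A). These are 6.98%, 0% and 14% of the 43, beside 7.67%, 0% and 12.5% of the 6065 genes with a symbol and a kept probe counted in the same way. Counting several probes gives a gene more chances to pass, and this count was chosen after the values were seen.

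The genes that carry cytokine signals inside the cell, such as the JAK and STAT proteins, the SOCS feedback inhibitors and the NF-kappa-B pathway, were followed as a list of 35, of which 25 were kept. Over all arrays none of the 25 was called in any comparison, and at an unadjusted p under 0.05 the counts were 0, 0 and 1. With the block, 1 was called higher and 1 lower in each comparison with RFIpl and none between RFIneg and RFIplR. The 2 of 25 are 8%, beside 6.63% and 10.4% of all probes in these comparisons, so the shares were near the background. SOCS2, a feedback inhibitor of growth hormone and cytokine receptors, was lower than in RFIpl, with a difference of -0.77 in RFIneg (adjusted p = 0.0247) and -0.96 in RFIplR (adjusted p = 0.00523). TAB1, an adaptor of the kinase TAK1, was 0.30 higher in RFIneg than in RFIpl (adjusted p = 0.0252), and TYK2, a JAK kinase used by the IL10 and IL12 receptors, was 0.34 higher in RFIplR than in RFIpl with the block (adjusted p = 0.0178) but differed by -0.03 over all arrays. The median difference of the 25 lay between -0.04 and 0.03 in both fits.

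Markers of immune cells were set beside the members, since less RNA per cell and fewer cells of a type cannot be told apart in bulk tissue. The 3 measured neutrophil genes, S100A8, S100A9 and S100A12, were all called higher in RFIneg and in RFIplR than in RFIpl with the block, by 1.18 to 2.18 and by 1.12 to 1.96, while MPO was not kept. CXCL2 and CSF3, which act on neutrophils, had no call, and CXCL8 was not tested. Over all arrays S100A8 and S100A12 were called in RFIneg and S100A12 in RFIplR (adjusted p of the others 0.142 to 0.151). None of the 4 macrophage genes kept (of 11 listed) and none of the 7 T and NK cell genes kept (of 11 listed) was called in any comparison in either fit. Over the bright arrays, their summed levels, as the mean of the list relative to all bright arrays, ran from -1.05 to 0.33 in RFIneg, -0.10 to 1.05 in RFIpl and -0.94 to 0.89 in RFIplR for macrophages, and from -0.85 to 1.01, -0.96 to 0.39 and -0.25 to 0.41 for T and NK cells. With the block, 5 of the 7 adipocyte genes were called higher in RFIneg and 3 in RFIplR than in RFIpl, and all 7 stood higher in both. Of the 2 fibroblast genes kept, 1 was called lower in each of these comparisons. Of the 5 endothelial genes 1 was called higher in RFIneg, and in RFIplR 2 were called higher and 1 lower, and 1 of 2 mast cell genes was called higher in RFIplR. None of the keratinocyte and muscle genes was called in any comparison. The part of these cells in the member differences was not tested.

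Ligands were next compared with their receptors across pigs, in 12 textbook pairs with both partners kept, a comparison chosen after the values were seen. CCR2 rose with CCL8 over the 17 bright arrays, with Pearson's r = 0.73 (permutation p = 0.00108, Benjamini-Hochberg adjusted p = 0.0130) and Spearman's rho = 0.74 (permutation p = 0.00103). Over the 7 dim arrays r was 0.11 (exact permutation p = 0.811, adjusted p = 0.873). Over the bright arrays without the 2 farthest from the CCL8 median it was 0.89, with group means subtracted 0.71 and over the 11 bright arrays of scan day 1 0.96. The bright arrays ranged from 52.1% to 79.9% of all probes well above background, and the part of this spread in the relation of CCL8 to CCR2 was not tested. The other 11 pairs had an adjusted p of 0.399 or more over the bright arrays, among them CXCL9 and CXCR3 (r = 0.31), CXCL12 and CXCR4 (r = -0.24, or -0.67 with group means subtracted), CCL2 and CCR2 (r = 0.43), CCL21 and CCR7 (r = -0.17) and IL10 and IL10RB (r = -0.38). Over the dim arrays IL10 and IL10RB had r = 0.68 (exact permutation p = 0.0625, adjusted p = 0.75) and rho = 0.96 (exact permutation p = 0.00278, adjusted p = 0.0333). IL10 was weak there, between -5.42 and -4.00 apart from RFIplR 4 at -1.15. Its probe was well above background on 5, 6 and 6 arrays of RFIneg, RFIpl and RFIplR. The dim RFIplR arrays were the highest dim arrays in both genes, and group means were not subtracted from these dim values.

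CCL5, CCL8 and CCR2 were set against the cell markers over the bright arrays, in 6 relations chosen after the values were seen. The adjusted p cover these 6 relations and not the choice of genes and marker lists. CCL5 went with the T and NK cell level at r = 0.77 (permutation p = 0.00022, adjusted p = 0.00132; Spearman's rho = 0.84, permutation p = 4e-05), or 0.73 without the 2 arrays farthest from the median of the marker level. CCL8 went with the macrophage level at r = 0.66 (permutation p = 0.00422, adjusted p = 0.0127; rho = 0.54, permutation p = 0.0286) and CCR2 at r = 0.60 (permutation p = 0.0119, adjusted p = 0.0238; rho = 0.63, permutation p = 0.00823), or 0.53 and 0.53 without the 2 farthest arrays. CCL5 had r = 0.42 with the macrophage level (permutation p = 0.0936, adjusted p = 0.140), while CCL8 and CCR2 had r of 0.31 and 0.14 with the T and NK cell level. The part of these cells in the relation of CCL8 to CCR2 was not tested.

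**Figure D4:**
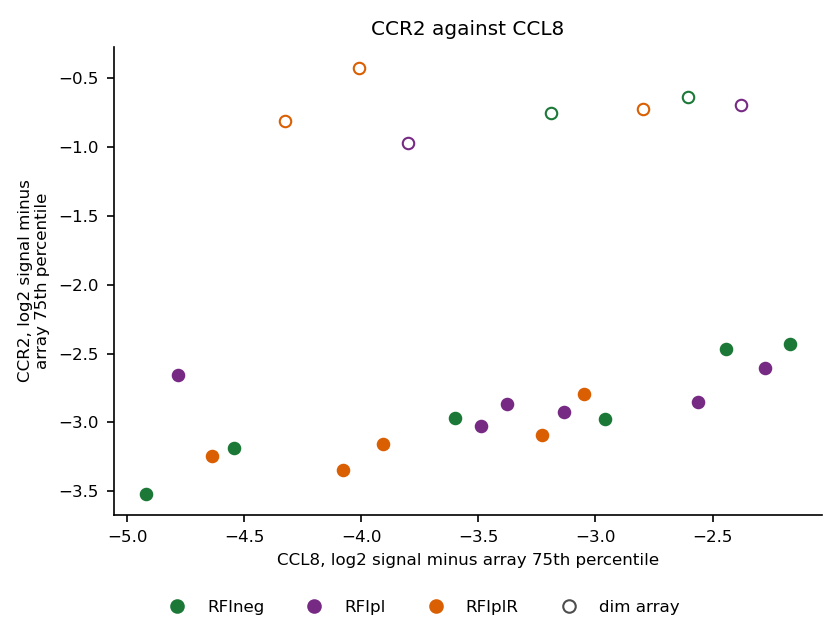
Level of CCR2 against CCL8 on each of 24 arrays (log2 signal minus the 75th percentile of the array), coloured by group, with open points for dim arrays. CCR2 rises with CCL8 among the filled points (r = 0.73, n = 17), and the dim arrays form a separate cluster at higher CCR2 levels.

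For 36 of the 43 members the bright and dim arrays differed by more than any 2 groups did over all arrays. After scaling, the bright arrays stood between -3.97 (CCL27) and 3.32 (CCL26) relative to the dim arrays, with CCL25 at -3.73, CSF3 at -2.77, CCL20 at -2.66, IL17F at -2.45, CCR2 at -2.23, CCL2 at 1.76 and IL6 at 2.27. Probes with more G and C bases stood relatively higher on the dim arrays. For the 15 tested members with a GC content of 50% or more the median was -1.47 (-1.27 for all 3038 such probes), for the 11 members from 40% to under 50% it was -0.18 (-0.25), and for the 17 under 40% it was 0.51 (0.50). Across probes, which are not independent, bright minus dim correlated with GC content at r = -0.30 over the 43 members and r = -0.28 over all 28601 kept probes, which share the same 24 arrays. Levels of these 36 members pooled over both classes therefore hold this gap, as do their SDs where given above. Among them are CCL20, CCL25, CCL26, CCL27, CCR2, CSF3, IL17F and IL6, and also CCL2, CCL3L1, CXCR3, IL29 and IL6R. A group mean over all arrays then depends on the number of dim arrays, which was highest in RFIplR.

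**Figure D5:**
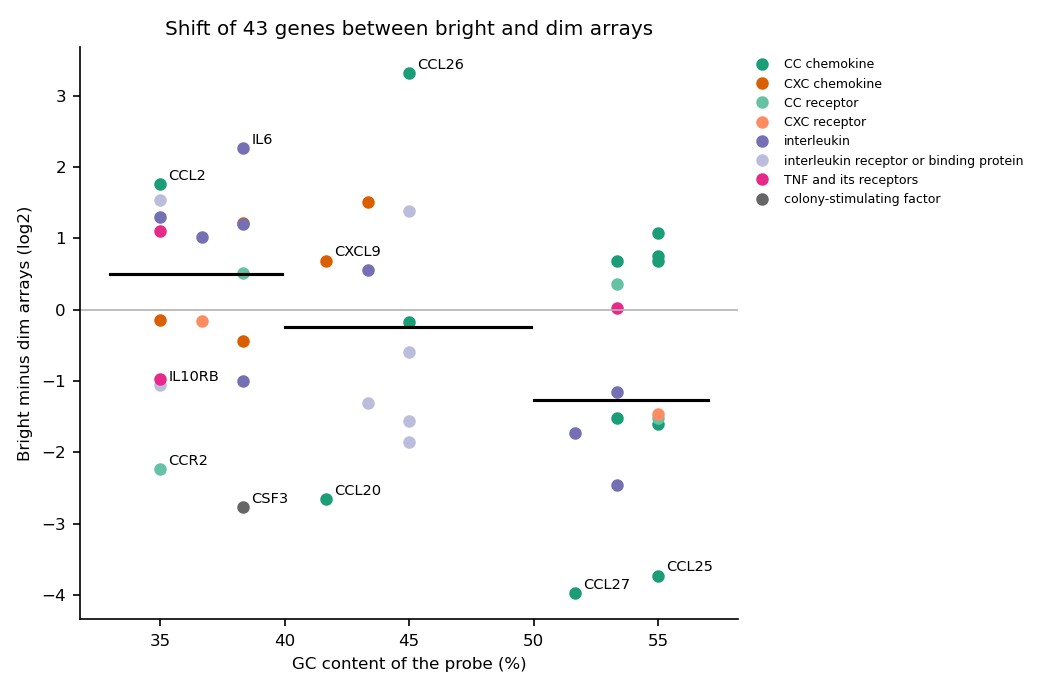
Mean level of each of the 43 tested genes on the bright minus the dim arrays (log2), against the GC content of its probe, coloured by family, with black lines for the median of all kept probes under 40%, from 40% to under 50%, and from 50% GC. Members range from -3.97 to 3.32, and those at 50% GC or more have a median of -1.47.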

How the data were processed

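RNA of pig subcutaneous fat was measured on 24 Agilent 1-colour arrays, 8 per group. The deposited scanner files hold spot intensity made with Feature Extraction 10.7.3.1, with background subtracted, per the file headers. The deposited value table holds log2 values, which matched log2 of that intensity centred on the median of each array (SD of the difference at most 4.5e-10). The submitters' processing notes name R 2.10.0. Probes were named by accession (7369) or by the symbol in the files (8722) with the help of a RefSeq gene table (Sscrofa11.1), from which only symbols were taken; 38 had several symbols and 27474 had none. The processed signal was floored at 1, put on the log2 scale and lowered by the array's own 75th percentile. No spot was saturated; 299 spots marked as non-uniform and all controls were dropped. Of 43603 probes, 28601 were well above background on at least 6 of 8 arrays of a group and missing on at most 6 arrays. Groups were compared with limma 3.58.1 (lmFit and eBayes, R 4.3.3, two-sided) and Benjamini-Hochberg adjustment over all kept probes. Full values are given for members called in either fit and for the 5 kept members with the smallest p per comparison. Permutation tests were two-sided, with 100000 draws for 17 arrays. The script was tested on simulated data. Members, lists, alternatives and named genes were chosen with earlier results of these data known. The alternatives were blocks (brightness, slide, scan day, replicate number), fits within them, other backgrounds, scalings, filters and variance models, the deposited table, and arrays left out. 3 genes are not reported here. The number of arrays limits the precision.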

Additional observations from a re-analysis of the deposited data

Results flagged for a closer look

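Within each group of 8, a level was marked when the gap to its nearest neighbour, as a share of the whole range of the group, was above 0.526 (Dixon). Of 129 combinations of a tested gene and a group, 9 were marked, and chance marks about 1 in 20. CXCL13 stood at 0.90 on RFIpl 7, one of the 2 arrays with keratinocyte transcripts, with the other RFIpl arrays between -5.03 and -2.60. CCL21 stood at -5.89 on RFIplR 7, with the others between -2.48 and 0.18. CXCL12 was marked in 2 groups: it was high on RFIpl 5 (4.76, the others up to 4.14), a dim array, and low on RFIplR 5 (3.67, the others from 4.47). CCR7 was high on the same RFIplR 5 at -3.13, with the others between -4.54 and -4.01. CCR1 was high on RFIpl 3 at -1.77, with the others up to -2.74. The other 3 were levels on dim arrays: CCL2 was low on RFIneg 7 at -1.17, IL18 was low on RFIpl 5 at -4.03, and IL1A was high on RFIplR 2 at -2.10.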

How the results depend on the processing

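Over all 24 arrays no member was called in any comparison, and this held when any 1 array was left out (0 to 0), under normexp correction, median or quantile scaling, other filters, the deposited table, a trended variance, slide or scan day as a block, within each brightness class and without RFIpl 7 and 8. The replicate block gave 0 calls in each comparison. Deviations of same-numbered pigs from their group means had r from -0.82 to 0.88 (over 0.1 in 12 of 24 pairs), but these hold the brightness gap. With group and brightness means removed, r ran from -0.28 to 0.30 and was over 0.1 in 1 of 24 pairs. The median was then 0.010, beside 0.003 for unlike numbers, so replicate numbers showed no pairing of the pigs. In RFIneg against RFIpl, 1 member was called with brightness as a block, 1 with that block and without RFIpl 2, 2 with that block and quantile scaling, and 3 with array weights (6.63%, 5.15%, 5.8% and 10.3% of all probes). In RFIplR against RFIpl, 2 were called with brightness as a block, 2 with that block and normexp, 2 with that block and quantile scaling, 1 with that block and a replicate block, 1 with that block and without RFIpl 7 and 8, 3 with that block and without RFIpl 2, 3 with brightness and slide as blocks, and 4 with array weights (10.4%, 2.68%, 9.14%, 6.46%, 6.23%, 10.9%, 5.92% and 9.64% of all probes, beside 2.33% for 1 member and 9.3% for 4). Leaving out 1 array at a time, the counts with brightness as a block ran from 0 to 3 in RFIneg against RFIpl, 0 to 0 in RFIneg against RFIplR and 1 to 5 in RFIplR against RFIpl, where RFIpl 3 gave the highest counts. With every kept probe and that block they were 3 and 6 in the comparisons with RFIpl. The test for any group difference called 0 members, or 1 with the block. The count well above background was 38 in RFIneg, 43 in RFIpl and 32 in RFIplR; on all 8 arrays it was 23 in RFIneg, and on at least 75% of the bright arrays it was 49 in RFIplR. Of 748 values of single genes under an alternative, 719 kept their direction and missed the threshold, 21 passed it and 8 changed sign. In RFIneg against RFIpl, CCL21 was 0.027 within scan day 1. In RFIneg against RFIplR, IL1RAPL2 was 0.25 within scan day 2, CCL8 was -0.35 with normexp and -0.20 with normexp and the brightness block, and IL6ST was 0.078 and 0.080 with these. In RFIplR against RFIpl, CCL20 was 0.67 with normexp and 0.44 with normexp and the brightness block. The causes were not tested. Scan day 3 held 1 array per group and could not be fitted alone.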
